A study of Homo sapiens with 6 samples.

Results

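The transcripts of the mitochondrial genome were examined in HK-2 cells, an immortalized line of human kidney tubular epithelial cells, with and without OX-LDL, low-density lipoprotein that has been oxidized. They were taken as every gene that the deposited expression table places on chrMT, which gave 37 of 58825 genes. These were 13 protein-coding genes, 2 rRNA genes and 22 tRNA genes, the full set known for human mitochondrial DNA. Poly(A) RNA from 3 untreated Control cultures and 3 cultures exposed for 48 h to OX-LDL at 25 μg/ml was sequenced as read pairs, and the labels name no other agent or genetic change. The labels give no incubation time for Control. The study's methods describe the in vitro experiments as independent in general, but neither they nor the labels tie the 3 libraries of a group to separate experiments, so p-values measure the spread between these samples. HK-2 is 1 immortalized line, and both groups share it.

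Mitochondrial DNA is a small circle inside the organelle that is copied and transcribed apart from the nuclear chromosomes. Both of its strands are read as long precursor RNAs in which tRNAs lie between most of the rRNAs and mRNAs, and cutting out the tRNAs releases the other RNAs. The proteins are all subunits of the respiratory chain or of ATP synthase, while the rRNAs and tRNAs serve the organelle's own ribosome, and kidney tubule cells are known for their dependence on this machinery. Most mitochondrial mRNAs carry a short poly(A) tail and MT-ND6 is known to lack one, and mature tRNAs end in CCA without a tail. Reads that fall on a tRNA gene in poly(A) RNA therefore need not come from mature tRNA.

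Total counts were 62561347 to 76797607 per library. Because counts of 4, 8 and 12 were 2.13 to 3.26 times as frequent as their neighbours, about 4 counts were taken to stand for 1 read pair. The first principal component held 34.75% of the variance and separated the groups, and the chi-square per gene between libraries of the same group was 14.3 to 24.8, so none was present more than once. Of 12 proximal tubule and epithelial markers, 7 had a mean of at least 0.1 FPKM (fragments per kilobase, adjusted for library size, a level per length), among them KRT8, PAX8 and CDH2. The markers ANPEP, AQP1, LRP2, CUBN and SLC34A1 of the differentiated proximal tubule were below that level in both groups. GGT1, also a marker of that tubule, was above it. GGT1 varied widely in Control, at 3.13, 18.2 and 3.88 FPKM, against 15.8, 17.7 and 16.1 FPKM in OX-LDL, with overlapping groups. In edgeR's quasi-likelihood test 4 of those 7 rose with OX-LDL, among them KRT8, CDH6 and CDH2, and PAX8 fell, with a log2 fold change of -1.23. Of 10 markers of other cell types, CD68, which marks macrophages and lysosomes, and ACTC1 reached 0.1 FPKM, and the 8 others did not. CD68 was at 2.77, 5.31 and 7.56 FPKM in Control and 13.6, 8.91 and 9.91 FPKM in OX-LDL, without overlap, and had an edgeR adjusted p of 0.0858. The part of these marker differences in the mitochondrial results was not tested.

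The sequences of 9 tRNA genes are given first because these carried the clearest differences or lay next to them. They were read from GENCODE release 29 on GRCh38, whose coordinates are identical to those of the deposited table for 37 of 37 chrMT genes. Each is written as the RNA strand 5′ to 3′ in DNA letters, with the anticodon in capitals. The first 5 belong to the + strand of the reference, the direction shared by 28 of the 37 genes.

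MT-TF, tRNA for phenylalanine, chrMT:577-647, + strand: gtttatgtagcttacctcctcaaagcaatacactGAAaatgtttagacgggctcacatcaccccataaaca
MT-TV, tRNA for valine, chrMT:1602-1670, + strand: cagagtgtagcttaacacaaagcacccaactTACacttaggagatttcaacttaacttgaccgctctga
MT-TL1, tRNA for leucine, chrMT:3230-3304, + strand: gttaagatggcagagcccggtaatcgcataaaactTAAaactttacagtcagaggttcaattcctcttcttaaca
MT-TI, tRNA for isoleucine, chrMT:4263-4331, + strand: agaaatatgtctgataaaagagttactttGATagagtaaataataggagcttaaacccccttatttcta
MT-TM, tRNA for methionine, chrMT:4402-4469, + strand: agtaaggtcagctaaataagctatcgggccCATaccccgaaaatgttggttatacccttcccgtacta
MT-TN, tRNA for asparagine, chrMT:5657-5729, - strand: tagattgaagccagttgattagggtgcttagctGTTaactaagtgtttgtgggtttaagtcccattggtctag
MT-TC, tRNA for cysteine, chrMT:5761-5826, - strand: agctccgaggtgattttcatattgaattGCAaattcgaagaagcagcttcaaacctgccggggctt
MT-TY, tRNA for tyrosine, chrMT:5826-5891, - strand: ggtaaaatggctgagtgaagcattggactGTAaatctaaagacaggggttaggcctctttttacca
MT-TE, tRNA for glutamate, chrMT:14674-14742, - strand: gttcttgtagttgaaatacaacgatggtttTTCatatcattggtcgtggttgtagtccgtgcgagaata

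Mitochondrial genes took much the same share of each library with and without OX-LDL. Their counts made up 5.69%, 5.25% and 5.69% of Control libraries 1 to 3 and 5.27%, 5.62% and 5.41% of OX-LDL libraries 1 to 3. The means were 5.55% ± 0.253 (SD, n = 3) and 5.43% ± 0.178 (SD, n = 3), and the groups overlapped (two-sided exact permutation test, p = 0.6). Counting error was far smaller than this spread, with a 95% Wilson interval of 5.68% to 5.70% for Control 1 when read pairs are counted. Because reads are not independent molecules, that interval covers counting error only. In bulk samples like these, fewer cells of a type and less RNA per cell cannot be told apart.

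The make-up of the mitochondrial reads did differ between groups. The rRNA genes held 0.998%, 0.964% and 1.02% of the Control libraries and 0.681%, 0.793% and 0.708% of the OX-LDL libraries. All 3 OX-LDL libraries were thus below all 3 Control libraries, with means of 0.994% ± 0.0283 and 0.728% ± 0.0584 (SD, n = 3 each). Protein-coding genes held 4.63%, 4.23% and 4.60% in Control and 4.52%, 4.76% and 4.64% in OX-LDL, and tRNA genes 0.0647%, 0.0640% and 0.0680% against 0.0665%, 0.0727% and 0.0681%. Both of these classes overlapped between the groups, with exact permutation p-values of 0.4 and 0.2. As a share of chrMT counts alone, rRNA was 17.9% ± 0.405 in Control and 13.4% ± 0.640 in OX-LDL, and protein-coding genes were 80.9% ± 0.446 and 85.4% ± 0.658 (SD, n = 3 each). With the rRNA genes left out of the chrMT total, the difference in the protein-coding share went from 4.47 to -0.0255 percentage points. The log2 ratio of rRNA to protein-coding counts went from a mean of -2.17 in Control to -2.67 in OX-LDL, without overlap. The smallest p that 3 libraries against 3 allow is 0.1, which the rRNA shares and this ratio gave. After Benjamini-Hochberg adjustment over the 10 shares and ratios computed, that exact permutation p became 0.167.

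**Figure D1:**
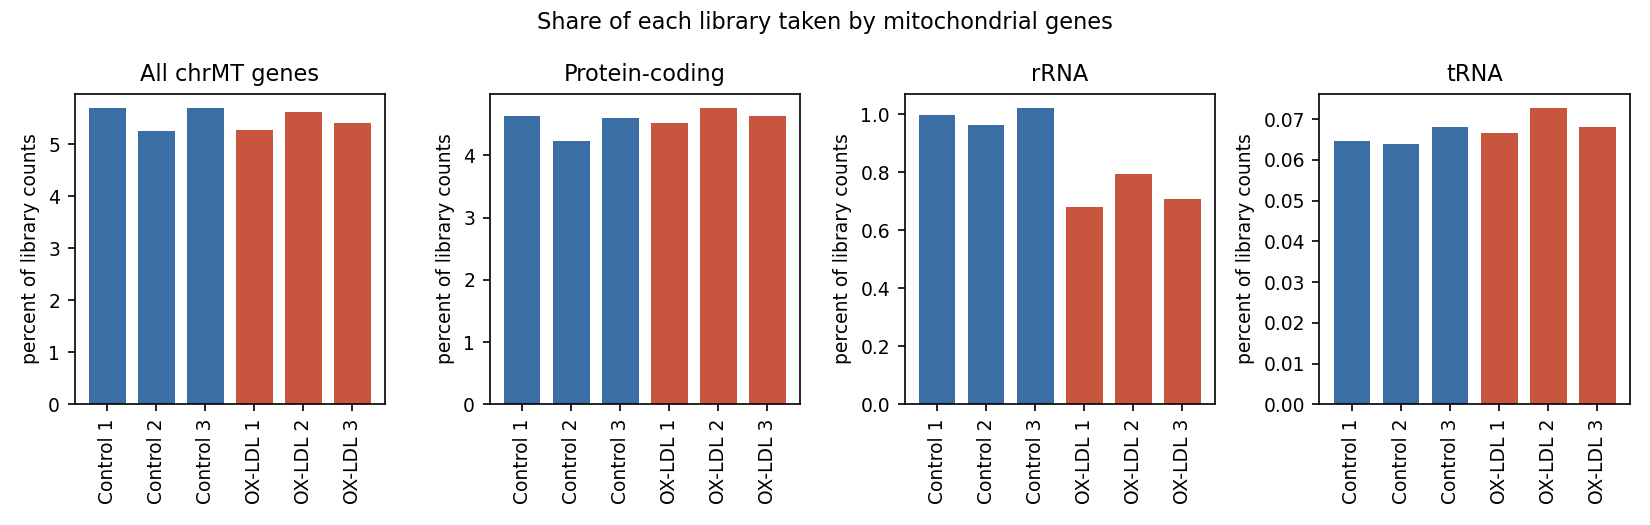
Percent of each library's counts (vertical axes, each starting at 0) on all chrMT genes and on the protein-coding, rRNA and tRNA genes, with 1 bar per library (Control blue, OX-LDL red). Bars of the 2 groups overlap in height except for rRNA, where OX-LDL stands at 0.681% to 0.793% and Control at 0.964% to 1.02%.

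Each gene was then tested for a difference between OX-LDL and Control with edgeR's quasi-likelihood test, and called where the p-value adjusted by Benjamini-Hochberg over all 19510 genes tested was under 0.05. All 37 mitochondrial genes passed the minimum level for testing. Of them 10 were called, against 15.3% of all genes tested. The 7 that fell compare with 7.42% of all genes called lower, and the 3 that rose with 7.91% called higher. These shares include many genes of low level. With a minimum mean of 1 FPKM, 25.7% of the 12259 genes then tested were called. In that fit 6 mitochondrial genes were called higher and 7 lower. In FPKM, the 2 groups did not overlap for 16 of the 37 genes, against 37.2% of all genes tested, with OX-LDL above Control for 7 (16.8% of all genes) and below for 9 (20.5%). In edgeR 0 of the 37 were DEGs in the study's sense, which asks for a fold above 2 or under 0.5 together with a p below 0.05 before adjustment, whereas 6.36% of all genes were. DESeq2 also gave 0 DEGs among them, and 16 of the 37 had an unadjusted p below 0.05 in edgeR. Among mitochondrial genes, log2 fold changes of OX-LDL over Control ran from -0.77 to 0.61 with a median of 0.08, beside a median of -0.004 over all genes tested.

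**Figure D2:**
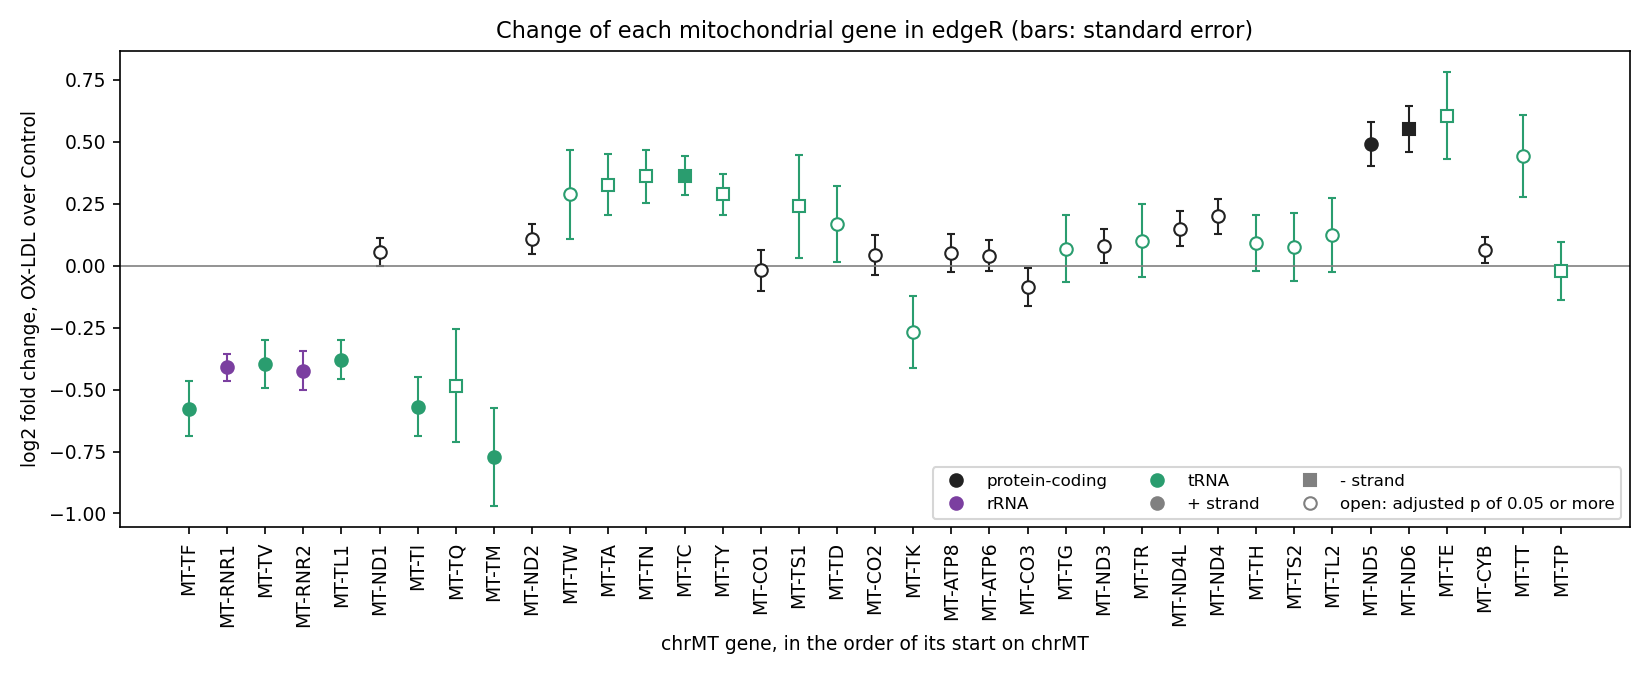
Log2 fold change of OX-LDL over Control in edgeR (vertical axis, bars are 1 standard error) for the 37 chrMT genes in the order of their starts (horizontal axis), with protein-coding genes in black, rRNA in purple and tRNA in green, circles for the + strand and squares for the - strand. Filled symbols mark an adjusted p under 0.05, and all of the first 5 genes, MT-TF to MT-TL1, are filled and lie between -0.58 and -0.38.

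The genes that fell lay at the start of the gene order, and later genes showed no steady trend. The first 5 genes of the + strand, MT-TF, MT-RNR1, MT-TV, MT-RNR2 and MT-TL1, form an unbroken block that carries both rRNAs. Of these 5 of 5 fell, against 7.42% of all genes tested called lower. The 5 genes together took 102, 98.4 and 104 of every 10000 counts in Control 1 to 3 and 69.6, 80.8 and 72.2 in OX-LDL 1 to 3. Of the next 5 genes, MT-ND1 to MT-ND2, MT-TI and MT-TM fell while both mRNAs kept log2 fold changes of 0.06 and 0.11 with overlapping groups. From MT-TW to MT-TY, 5 of 5 values were positive and MT-TC was called. None of the 8 genes from MT-CO1 to MT-CO3 was called, and none of the 5 from MT-TG to MT-ND4, against 15.3% of all genes tested. Across MT-TH to MT-TE, 6 of 6 values were positive, and MT-ND5 and MT-ND6 rose. The last 3 genes, MT-CYB, MT-TT and MT-TP, were not called. After MT-TM, + strand values did not rise steadily, with 0.29 for MT-TW, -0.27 for MT-TK, 0.49 for MT-ND5 and 0.06 for MT-CYB. As a description across genes, which are not independent replicates and share libraries and precursors, Spearman's rho between start position and log2 fold change was 0.71 over the 28 + strand genes, 0.71 over their 14 tRNAs and 0.48 over their 12 protein-coding genes.

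Both rRNAs fell. MT-RNR1, the 12S rRNA of the small mitochondrial ribosomal subunit (chrMT:648-1601), was at 856, 831 and 823 FPKM in Control 1 to 3 and at 626, 613 and 609 FPKM in OX-LDL 1 to 3. Levels were tight within each group and far apart between them. The log2 fold change was -0.41 with a standard error of 0.056 and an edgeR adjusted p of 0.00683, and MT-RNR1 was called in all 6 fits that left out 1 library each. MT-RNR2, the 16S rRNA of the large subunit (chrMT:1671-3229), was at 4901, 4737 and 5068 FPKM in Control and at 3322, 3929 and 3476 FPKM in OX-LDL. OX-LDL 2 was the highest of the treated libraries and still below every Control library. Here the log2 fold change was -0.42 with a standard error of 0.079 and an edgeR adjusted p of 0.0170. Without Control 3, OX-LDL 1 or OX-LDL 3 that adjusted p in edgeR was 0.0536, 0.0567 and 0.0642. MT-RNR2 was 5.70 to 6.16 times as high as MT-RNR1 in Control and 5.31 to 6.41 times as high in OX-LDL, so the ratio between the rRNAs overlapped.

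How much rRNA enters a poly(A) library can depend on how completely other RNA is removed, so RNAs of the nucleus that carry no poly(A) tail were read alongside. Tails on the mitochondrial rRNAs were not measured, so these nuclear RNAs need not be captured in the same way. Of 20 such RNAs listed, 11 were tested and 0 were called in edgeR, with 3 at an unadjusted p under 0.05 and 2 called by DESeq2. Over all genes tested, 15.3% were called in edgeR and 22.7% by DESeq2. For 7 of the 11, no library of at least 1 group had more than 12 counts, so log2 fold changes are given for the other 4. RN7SL1, an RNA of the signal recognition particle, was at 10.3, 14.6 and 7.97 FPKM in Control and 3.61, 6.41 and 6.77 FPKM in OX-LDL, which is -0.93 on the log2 scale, with an edgeR adjusted p of 0.117. Its paralog RN7SL2, which can share reads with it, had -1.03 with an edgeR adjusted p of 0.133, and RN7SK, an RNA that holds back transcription elongation, had -1.03 with 0.259. SNORA73B, a small nucleolar RNA, had 0.59 with an edgeR adjusted p of 0.143. In FPKM the groups did not overlap for RN7SL1, which was lower in OX-LDL, and SNORA73B, which was higher. They overlapped for RN7SL2 and RN7SK. Of all genes tested, 37.2% did not overlap. The part of RNA selection in the rRNA difference was not tested.

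The tRNAs inside and just after the rRNA block were lower as well. MT-TF, the first gene after the control region, was at 208, 216 and 245 FPKM in Control and 151, 142 and 146 FPKM in OX-LDL. Between the rRNAs lies MT-TV, at 262, 251 and 273 FPKM in Control and 191, 195 and 198 FPKM in OX-LDL. Neither tRNA had a treated library that reached the lowest Control library. MT-TL1 directly follows MT-RNR2 and was the most abundant tRNA gene of Control, at 1808, 1836 and 1609 FPKM against 1278, 1362 and 1308 FPKM in OX-LDL. Further on, MT-TI was at 139, 155 and 145 FPKM against 93.3, 100.4 and 95.3 FPKM, and MT-TM at 69.7, 76.6 and 52.1 FPKM against 38.1, 36.8 and 38.5 FPKM. Control 3 stood low for both MT-TL1 and MT-TM, yet above all OX-LDL libraries. Log2 fold changes were -0.58 for MT-TF, -0.40 for MT-TV, -0.38 for MT-TL1, -0.57 for MT-TI and -0.77 for MT-TM, with standard errors of 0.11, 0.097, 0.078, 0.12 and 0.20. Their edgeR adjusted p-values were 0.0187, 0.0371, 0.0225, 0.0231 and 0.0431.

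These 5 tRNA calls depended on which libraries were included. So did calls over all genes tested, from 5.95% without Control 2 to 15.1% without OX-LDL 2, against 15.3% with all 6 libraries. MT-TV was not called in edgeR without any 1 of the 6 libraries, with adjusted p-values of 0.059 to 0.114. MT-TF stayed called without Control 1 or OX-LDL 2, with edgeR adjusted p-values of 0.0439 and 0.0386, and was at 0.0577 without Control 2, 0.0522 without Control 3, 0.0623 without OX-LDL 1 and 0.0666 without OX-LDL 3. MT-TL1 stayed called without Control 3 or OX-LDL 2 and was at an edgeR adjusted p of 0.0678 to 0.0819 without Control 1, Control 2, OX-LDL 1 or OX-LDL 3. MT-TI was called only without OX-LDL 2, with edgeR adjusted p-values of 0.0573 to 0.0882 without any other library. MT-TM was called only without Control 3, at 0.0343, and edgeR adjusted p-values were 0.0821 to 0.142 without any other. The sign was negative in every one of these fits for all 5 genes.

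Grouped by the strand of the gene, the 1 called tRNA of the - strand rose and the 5 of the + strand fell. The signs of the rest leaned positive on both strands. Whether counting used strand is not given, so reads on a gene of 1 strand may come from RNA of the other. Over all genes tested, 7.91% were called higher and 7.42% lower. On the - strand 1 of 8 tRNA genes rose, MT-TC, and none fell, and 6 of the 8 log2 fold changes were positive, with a median of 0.31. On the + strand 5 of 14 fell and none rose, and 8 of the 14 log2 fold changes were positive, with a median of 0.07. Summed counts of the - strand tRNA genes were 3.60, 3.44 and 3.96 of every 10000 library counts in Control and 4.33, 4.85 and 4.37 in OX-LDL, without overlap. For the + strand tRNA genes the sums were 2.88, 2.96 and 2.84 in Control and 2.32, 2.41 and 2.44 in OX-LDL, also without overlap. MT-TL1 alone held 47.5% to 55.6% of that + strand sum. Without it, the other 13 summed to 1.28, 1.34 and 1.42 in Control and 1.19, 1.21 and 1.28 in OX-LDL, and OX-LDL 3 then lay just above Control 1, so the groups overlapped. MT-TA, MT-TN, MT-TC and MT-TY, neighbours in a cluster around the origin from which the other strand is copied, together held 49.3%, 48.4% and 51.9% of tRNA counts in Control and 58.3%, 60.7% and 57.1% in OX-LDL.

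Within that cluster MT-TC was at 1358, 1323 and 1459 FPKM in Control and 1698, 1853 and 1661 FPKM in OX-LDL. All treated libraries were above all Control libraries, and the log2 fold change was 0.36 with a standard error of 0.079 and an edgeR adjusted p of 0.0266. The call held without Control 3 or OX-LDL 2, and the edgeR adjusted p was 0.0737, 0.0917, 0.0669 and 0.0680 without Control 1, Control 2, OX-LDL 1 and OX-LDL 3. MT-TN was at 1085, 1032 and 1247 FPKM against 1297, 1549 and 1380 FPKM, and MT-TY, which shares its end base with MT-TC, at 1071, 1062 and 1147 FPKM against 1293, 1407 and 1219 FPKM. Groups did not overlap for either, but the log2 fold changes of 0.36 and 0.29 had edgeR adjusted p-values of 0.0681 and 0.0580. For MT-TA, the tRNA for alanine, 448, 432 and 541 FPKM stood against 532, 648 and 564 FPKM. Control 3 lay above OX-LDL 1, and the edgeR adjusted p was 0.130. The exception on this strand next to the fallen tRNAs was MT-TQ, the tRNA for glutamine, at 30.4, 42.0 and 30.3 FPKM against 27.6, 21.6 and 22.4 FPKM. It shares 3 bases with MT-TI on the opposite strand and had a log2 fold change of -0.48 with a standard error of 0.23 and an edgeR adjusted p of 0.209.

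**Figure D3:**
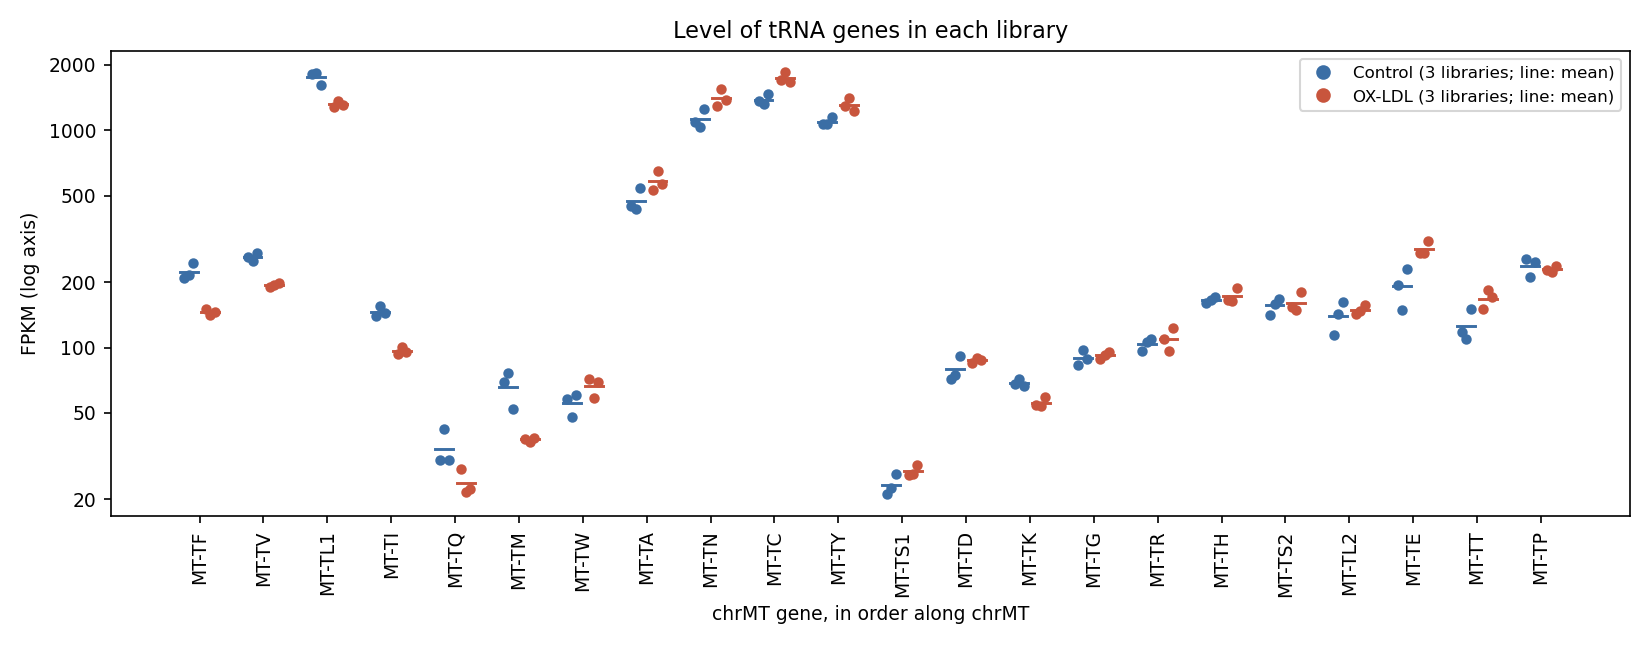
FPKM on a log axis of the 22 tRNA genes (horizontal axis, in order along chrMT) in each library, with points for the 3 Control (blue) and 3 OX-LDL (red) libraries and short lines for their means. Levels span from 21.1 FPKM for MT-TS1 to 1853 FPKM for MT-TC, and red points lie below blue points for MT-TF, MT-TV, MT-TL1, MT-TI, MT-TQ, MT-TM and MT-TK and above them for MT-TN, MT-TC, MT-TY and MT-TE.

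Levels of tRNA genes spread widely within each library. Because tRNA genes are shorter than the sequenced fragments, their FPKM is not comparable with that of longer genes. Their mean in Control ran from 23.3 FPKM for MT-TS1 to 1751 FPKM for MT-TL1, with a median of 151 FPKM over the 22 genes. In OX-LDL the median was 155 FPKM, and MT-TC at 1737 FPKM took the highest place from MT-TL1 at 1316 FPKM. MT-TE, next to MT-ND6 on the - strand, was at 194, 149 and 230 FPKM in Control and 271, 274 and 308 FPKM in OX-LDL. Its log2 fold change of 0.61 was the highest of the 37 genes, with no overlap, but a standard error of 0.17 and an edgeR adjusted p of 0.0621. Without Control 3 that edgeR adjusted p was 0.0460, and without any other library it was 0.0952 to 0.171. DESeq2 called MT-TN, MT-TY and MT-TE in addition to the 10 genes called by edgeR. It called 22.7% of all genes tested, against 15.3% in edgeR.

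Of the 13 protein-coding genes, the 2 neighbours MT-ND5 and MT-ND6 rose and none fell. Of all genes tested, 7.91% were called higher and 7.42% lower. MT-ND5, the complex I subunit at the far end of the proton-pumping arm (chrMT:12337-14148, + strand), was at 1258, 1084 and 1292 FPKM in Control and 1658, 1598 and 1746 FPKM in OX-LDL. MT-ND6, another membrane subunit of complex I and the only mRNA of the - strand (chrMT:14149-14673), was at 1029, 888 and 1083 FPKM in Control and 1424, 1390 and 1490 FPKM in OX-LDL. Every treated library exceeded every Control library for both genes. MT-ND5 had a log2 fold change of 0.49 with a standard error of 0.087 and an edgeR adjusted p of 0.0144, which became 0.0538 without OX-LDL 3 and stayed under 0.05 in the other 5 such fits. MT-ND6 had 0.55 with a standard error of 0.092 and an edgeR adjusted p of 0.0118, and was called in 6 of 6 fits without 1 library.

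MT-ND5 and MT-ND6 lie end to end on opposite strands. MT-ND6 over MT-ND5 in FPKM was 0.818, 0.819 and 0.838 in Control and 0.859, 0.869 and 0.853 in OX-LDL, so it was higher in every OX-LDL library than in every Control library. The library preparation marks strand, but whether the counting used strand is not given in the sources used here, so reads of MT-ND6 and of RNA from the opposite strand at that place cannot be told apart. The same limit holds for the 8 tRNA genes on the - strand. MT-ND5 over its downstream neighbour on the + strand, MT-CYB, was 0.639, 0.572 and 0.655 in Control and 0.823, 0.802 and 0.890 in OX-LDL.

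The other mitochondrial genes of complex I moved less. MT-ND4, which sits beside MT-ND5 in the membrane arm, was at 3224, 2873 and 3031 FPKM in Control and 3466, 3250 and 3544 FPKM in OX-LDL, without overlap. The log2 fold change of 0.20 with a standard error of 0.071 did not pass the test (edgeR adjusted p of 0.111). MT-ND4L, read from the same mRNA as MT-ND4, had 0.15, and MT-ND1, MT-ND2 and MT-ND3 had 0.06, 0.11 and 0.08, all with overlapping groups. MT-CYB, the sole mitochondrial subunit of complex III, was at 1969, 1894 and 1973 FPKM against 2015, 1993 and 1962 FPKM, with a log2 fold change of 0.06. Its 6 values lay within a narrow band.

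Transcripts for complex IV were the highest of the 37. MT-CO1, the catalytic subunit, was at 7192, 6771 and 7249 FPKM in Control and 6337, 7587 and 6557 FPKM in OX-LDL. OX-LDL 2 was the highest and OX-LDL 1 the lowest of all 6 libraries, so the groups overlapped, and the log2 fold change was -0.02 with a standard error of 0.084. MT-CO2, which takes electrons from cytochrome c, had means of 5803 and 5848 FPKM in Control and OX-LDL, and MT-CO3 of 6677 and 6155 FPKM. Log2 fold changes were 0.04 and -0.09, and neither passed the test. MT-CO1 alone made up 28.3%, 29.1% and 28.5% of the protein-coding counts in Control and 25.5%, 29.1% and 25.7% in OX-LDL, while MT-ND5 rose from 5.81%, 5.48% and 5.97% to 7.84%, 7.20% and 8.05%.

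**Figure D4:**
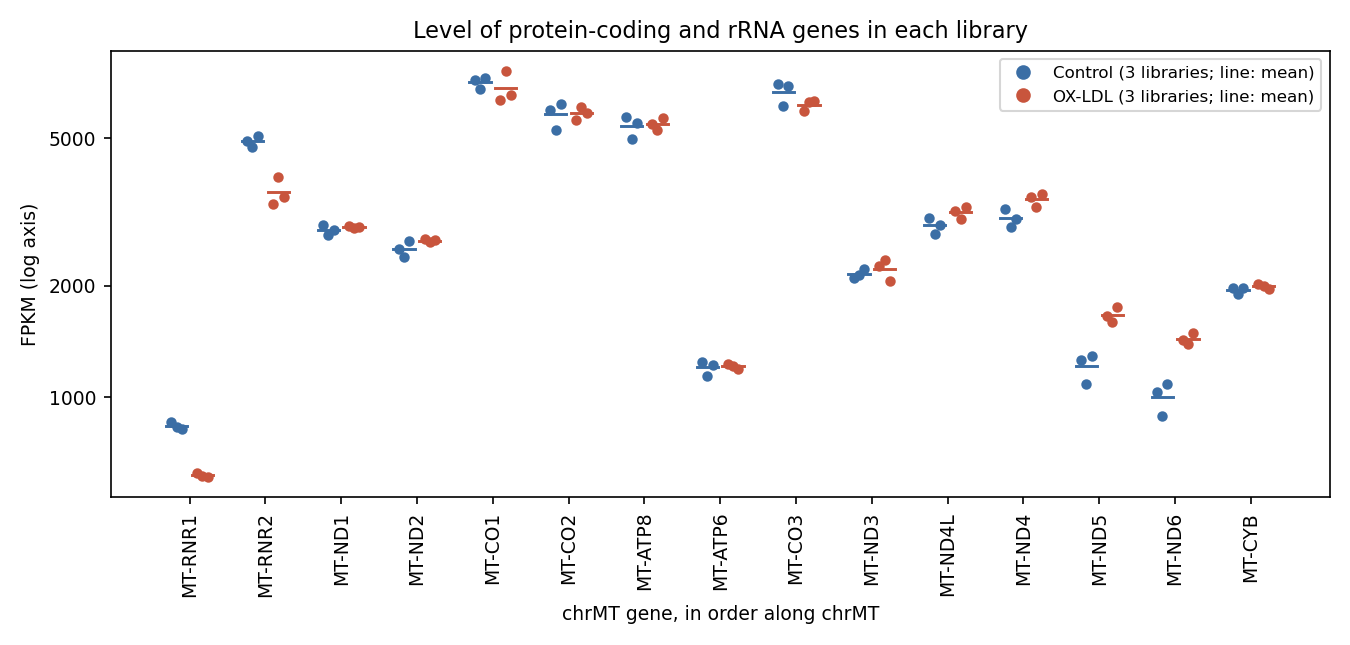
FPKM on a log axis of the 13 protein-coding and 2 rRNA genes of chrMT (horizontal axis, in order along chrMT) in each library, with points for the 3 Control (blue) and 3 OX-LDL (red) libraries and short lines for their means. Red points lie below blue points for MT-RNR1 and MT-RNR2, above them for MT-ND4, MT-ND5 and MT-ND6, and among them for the other 10 genes.

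The ATP synthase subunits MT-ATP8 and MT-ATP6 share an mRNA and overlap in reading frames. The 46 shared bases are shown in capitals, with flanking bases of each gene in lower case, on the + strand at chrMT:8507-8592, again from GENCODE release 29 on GRCh38.

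MT-ATP8 and MT-ATP6 overlap: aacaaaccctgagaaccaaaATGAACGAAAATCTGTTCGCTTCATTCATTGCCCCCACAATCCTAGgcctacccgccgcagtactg

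The capitals open with the ATG that starts MT-ATP6 and end with the stop of MT-ATP8. MT-ATP8 was at 5691, 4977 and 5490 FPKM in Control and 5475, 5255 and 5659 FPKM in OX-LDL, and MT-ATP6 at 1245, 1144 and 1222 FPKM against 1227, 1216 and 1191 FPKM. Groups overlapped for both, with log2 fold changes of 0.05 and 0.04. Although they lie on 1 mRNA, MT-ATP8 had a mean of 464 counts per base in Control and MT-ATP6 had 104. A copy of MT-ATP6 in the nuclear genome, MTATP6P1 (chr1:633696-634376), held 64.6% to 69.3% as many counts as MT-ATP6 in the 6 libraries, and reads that match both cannot be told apart, so the level of MT-ATP6 is uncertain. With the counts of that copy added, MT-ATP6 had 173 counts per base in Control and 172 in OX-LDL, still below the 464 and 465 of MT-ATP8.

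Nuclear copies touched few of the other genes. Of 417 nuclear genes named as copies of mitochondrial genes, 22 had more than 12 counts in some library. Copies of MT-ND2 held 6.68% to 12.9% as many counts as MT-ND2 and copies of MT-CO1 1.11% to 3.48% as many as MT-CO1, while copies of MT-ND5, MT-ND6 and MT-RNR2 averaged 0.0254%, 0.0348% and 0.0183%. Adding the counts of the copies to their mitochondrial gene left the same 10 genes called.

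Mitochondrial genes were among the most abundant in these libraries, with 9 of the 10 genes of highest mean FPKM and 15 of the highest 20. By mean FPKM in Control the 3 highest protein-coding genes were MT-CO1, MT-CO3 and MT-CO2, with MT-ATP8 next, and the lowest listed was MT-ND6 at 1000 FPKM ± 101 (SD, n = 3). In OX-LDL MT-ND6 stood at 1435 FPKM ± 51.1 (SD, n = 3). MT-ATP6, listed at 1204 ± 53.2 (Control) and 1211 ± 18.6 FPKM (OX-LDL), cannot be placed in this order because of its nuclear copy. The places of MT-ATP8, of MT-ND4L (297 bases) and of the tRNA genes are uncertain too, because these genes are shorter than the average sequenced fragment. MT-ND3, at 346 bases, is little longer than that fragment.

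Nuclear genes that act on the mitochondrial genome were read from fixed lists. The counts of each list stand beside 7.91% of all genes tested called higher and 7.42% called lower. For transcription and replication of mitochondrial DNA, 20 of 20 genes were tested, 0 rose, 2 fell and the median log2 fold change was -0.06. TFAM, which packs mitochondrial DNA and starts its transcription, had -0.19 with an edgeR adjusted p of 0.139, and the RNA polymerase POLRMT had 0.18 with 0.345. The 2 that fell were the topoisomerases TOP1MT and TOP3A, at -0.51 and -0.42 with edgeR adjusted p-values of 0.0460 and 0.0489. Both were called only without OX-LDL 2 among the fits without 1 library, with edgeR adjusted p-values of 0.0573 to 0.138 for TOP1MT and 0.0773 to 0.143 for TOP3A without the others.

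Among 36 genes for processing, modification and turnover of mitochondrial RNA, 2 rose (7.91% of all genes) and 7 fell (7.42%), with a median of -0.08. SUPV3L1, the helicase that unwinds mitochondrial RNA for decay, fell from 12.1, 12.2 and 11.9 FPKM in Control to 8.91, 8.22 and 7.99 FPKM in OX-LDL, or by 0.50 on the log2 scale (edgeR adjusted p of 0.00860). NSUN4, which methylates the 12S rRNA and takes part in ribosome assembly, fell by 0.54 on the log2 scale, and TRMT5, a tRNA methyltransferase, by 0.52 (edgeR adjusted p of 0.00959 and 0.0107). TRMU, which modifies the wobble base of some mitochondrial tRNAs, rose by 0.54 (edgeR adjusted p of 0.00872). These 4 were called in all 6 fits without 1 library. LRPPRC, which keeps mitochondrial mRNAs stable, was at 33.1, 29.8 and 31.7 FPKM in Control and 32.0, 33.9 and 34.4 FPKM in OX-LDL, with overlapping groups.

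Of 23 aminoacyl-tRNA synthetases that work in mitochondria, 4 rose and 2 fell, with a median of -0.02. GARS1, which charges glycine tRNA in both cytosol and mitochondria, fell from 111, 109 and 109 FPKM to 35.5, 34.1 and 41.9 FPKM, a log2 fold change of -1.53 with an edgeR adjusted p of 0.000601. KARS1, which likewise serves both compartments for lysine, rose from 33.8, 34.1 and 37.1 FPKM to 49.3, 49.3 and 48.0 FPKM, a log2 fold change of 0.51 with an edgeR adjusted p of 0.00579. Both were called in all 6 fits without 1 library. Among 14 regulators of mitochondrial biogenesis, 0 rose (7.91% of all genes) and 4 fell (7.42%), with a median of -0.27. NFE2L2, the main factor of the antioxidant response, fell by 0.82 on the log2 scale with an edgeR adjusted p of 0.00117. Of these 4, only NFE2L2 was called in all 6 fits without 1 library. PPARGC1A, the best known coactivator of this group, had -0.23 with an edgeR adjusted p of 0.323.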

How the data were processed

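HK-2 libraries (3 Control, 3 OX-LDL) were grouped by the labels. The authors deposited a table of estimated counts, unscaled and whole, and of FPKM values scaled for gene length and library size. The submitters' processing notes name cutadapt 1.9, HISAT2 2.0.4, StringTie 1.3.4d, edgeR, DESeq2 and GRCh38, without their roles, and the counting tool's use of strand is not given in the sources used here. Counts were tested in edgeR 4.0.16 (R 4.3.3) with TMM factors, glmQLFit and glmQLFTest and the group as only term, for the 19510 genes that averaged 0.1 FPKM or more. Shares and ratios were compared by exact permutation. The fits were tested on simulated data. Alternatives were DESeq2 1.42.0, limma 3.58.1 on log2(FPKM + 0.1) and log2(FPKM + 1), other factors and minimums, a replicate block, leaving out each library and adding nuclear copies. All protein-coding and rRNA genes, the tRNAs called and the 5 tRNAs of highest mean count were named by rule, as were POLRMT, TFAM, LRPPRC, PPARGC1A and, of each list, at most the 6 called genes of smallest p. Other tRNAs and the tail-less nuclear RNAs were named after their values were seen. The genes studied and the lists were chosen with earlier results of these data known.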

Additional observations from a re-analysis of the deposited data

How the results depend on the processing

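The number of mitochondrial genes called was 10 in edgeR, 13 with DESeq2 (6 higher, 7 lower) or a minimum of 1 FPKM, 11 with limma at either pseudocount, 8 with no minimum and 10 with factors from genes outside chrMT, with library totals only or with nuclear copies added, the last chosen after seeing the data. The share of all genes called moved too. It was 15.3% in edgeR, 22.7% with DESeq2, 25.7% with a minimum of 1 FPKM and 7.46% with no minimum. With limma it was 14.9% at the pseudocount of 0.1 and 15.0% at 1. Without 1 library, 2 to 8 mitochondrial genes were called, at 5, 4, 7, 3, 8 and 2 without Control 1, 2 and 3 and OX-LDL 1, 2 and 3. In the same order, 9.21%, 5.95%, 10.2%, 6.47%, 15.1% and 5.96% of all genes tested were called. Samples that share a replicate number did not deviate together over all genes (correlations of -0.041, -0.0031 and 0.036, beside -0.054 to 0.056 for unlike numbers). The labels do not say whether they were paired, and these correlations cannot settle it. With a replicate block, 3 mitochondrial genes and 16 genes of the nuclear lists were called, against 8.39% of all genes tested. Not every sample correlated best with its own number. The nuclear lists had 38 calls, 59 with DESeq2 and 13 to 33 without 1 library (21, 14, 21, 16, 33 and 13 in the same order). The cause of these changes was not tested. The median tRNA log2 fold change of 0.10 was 0.033 to 0.13 without 1 library. Leaving out the rRNA genes turned the difference in chrMT share to 0.143 percentage points and that in the protein-coding share of chrMT counts to -0.0255, by construction. Without 1 library, the difference in the log2 ratio of tRNA to protein-coding counts ran from -0.0061 to 0.052. The log2 fold change ran from -0.10 to 0.040 for MT-CO1, -0.11 to 0.042 for MT-TP, -0.031 to 0.090 for MT-CO2, -0.011 to 0.10 for MT-ATP8, -0.0043 to 0.075 for MT-ATP6 and -0.020 to 0.13 for MT-TS2.

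Levels read on tRNA genes come from poly(A) RNA in fragments longer than a tRNA and do not measure mature tRNA. Counting error covers read pairs only.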

Other observations

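Nuclear genes for the partners of the mitochondrial products moved little as groups. Of 78 mitochondrial ribosomal proteins, which assemble with MT-RNR1 and MT-RNR2, 5 rose and 6 fell, with a median log2 fold change of -0.07 (edgeR's quasi-likelihood test). Over all genes tested, 7.91% were called higher and 7.42% lower. MRPS35 and MRPL33 rose by 0.67 and 0.58 on the log2 scale and MRPL45 fell by 0.49, and these 3 were called in all 6 fits without 1 library. MRPS6 had means of 32.3 FPKM (Control) and 8.50 FPKM (OX-LDL) and was called, but without Control 1, Control 2, OX-LDL 1, OX-LDL 2 or OX-LDL 3 its edgeR adjusted p was 0.0671 to 0.0906.

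Among the nuclear subunits of the respiratory chain, complex I had 1 gene higher and 1 lower of 37, complex IV had 2 higher of 12 tested, and complex V had 2 higher of 18, with medians of -0.03, 0.06 and 0.12. Of 9 complex III genes, 0 were called in edgeR, with 5 at an unadjusted p under 0.05 and 2 called by DESeq2. Over all 9 nuclear lists, 38 of 247 genes tested were called, 16 higher and 22 lower, beside 15.3% of all genes tested. Of these 38 calls, 10 held in all 6 fits without 1 library.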
